A study of Mus musculus with 6 samples.

Results

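The 10 genes described here encode the 5 subunits of the transcription factor NF-kB (Nfkb1, Nfkb2, Rel, Rela and Relb) and 5 proteins grouped as its inhibitors. The genes of the inhibitor group are Nfkbia, Nfkbib, Nfkbie, Nfkbiz and Tnfaip3. All 10 were chosen by name, and all 10 listed genes were among the 13912 genes of the deposited table. RNA had been sequenced from 2 groups of 3 libraries of 4T1-Luc2-RFP cells, a BALB/c mouse mammary carcinoma line with genes for luciferase and red fluorescent protein added. Tumour libraries were made from cells that had been sorted by fluorescence out of MIND tumours of the mammary gland, which grow after injection into the milk ducts of mice. Cultured libraries were made from the same line kept in culture and not injected. The age of the mice, the number of mice behind a library, the sort gate and whether the line is a single clone were not given in the sources used here. As the labels do not tie the libraries to separate mice or culture dishes, a p-value here reflects the spread among these 6 libraries, part or all of which may be technical.

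NF-kB proteins act as pairs. In the classical route, dimers of p65 (the Rela product) or c-Rel (Rel) with p50 (from Nfkb1) are held in the cytoplasm by the IkB proteins until the IKK kinases mark the IkB for destruction. In the alternative route, p100 (from Nfkb2) is itself the inhibitor and is processed to p52, the partner of RelB. Several genes of the system, among them Nfkbia and Tnfaip3, are known as targets of NF-kB and act as feedback brakes, and both tumour cells and infiltrating leukocytes use the pathway.

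Promoter windows of 300 bases, from 250 bases before to 50 bases after an annotated start, were found in the RefSeq table of GRCm38.p6 for 7 of the 10 genes. The 7 genes had 10 windows. The 10-base kappaB consensus, the site NF-kB dimers are known to bind, was searched on both strands, with overlapping matches merged. It was found in 7 of these 10 windows, against 8.46% of all 32851 windows. All 3 windows of Nfkb2 held a match. Windows 2 and 3 of Nfkb2 overlap and share the same GGGACTTTCC site, which is counted in each of them. The windows are thus not independent, and the counts are a description. By gene, a match was found in 5 of the 7 genes. The share of all genes with a match was not counted, so this count has no background beside it. The windows of 3 genes called by the test below are printed because they carry such a match close to the start. Capitals mark the kappaB matches.
Nfkbia (chr12:55492598-55492897, minus strand): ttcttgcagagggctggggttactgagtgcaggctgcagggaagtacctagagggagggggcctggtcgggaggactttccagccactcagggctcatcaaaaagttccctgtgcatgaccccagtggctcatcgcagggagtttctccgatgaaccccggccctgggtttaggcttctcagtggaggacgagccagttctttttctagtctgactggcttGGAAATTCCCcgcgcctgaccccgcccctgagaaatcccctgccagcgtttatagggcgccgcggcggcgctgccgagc
Rel (chr11:23770920-23771219, minus strand): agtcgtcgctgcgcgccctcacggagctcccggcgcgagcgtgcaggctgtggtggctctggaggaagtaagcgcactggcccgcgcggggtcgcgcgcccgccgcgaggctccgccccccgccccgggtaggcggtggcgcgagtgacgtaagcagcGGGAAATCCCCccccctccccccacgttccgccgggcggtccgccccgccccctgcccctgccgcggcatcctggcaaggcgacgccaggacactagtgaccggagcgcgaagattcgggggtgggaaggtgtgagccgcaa
Nfkb2, the first of its 3 windows (chr19:46304487-46304786, plus strand): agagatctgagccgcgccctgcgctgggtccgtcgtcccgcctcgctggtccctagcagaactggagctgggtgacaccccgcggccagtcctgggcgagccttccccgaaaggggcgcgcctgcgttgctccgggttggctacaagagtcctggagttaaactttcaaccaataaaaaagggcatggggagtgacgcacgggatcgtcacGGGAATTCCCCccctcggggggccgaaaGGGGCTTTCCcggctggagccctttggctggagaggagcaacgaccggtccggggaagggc
The Nfkbia match began 29 bases before the start, the Rel match 92 bases before it, and those of Nfkb2 39 and 11 bases before it. Nfkbie held GGGGGATTCC, from 106 bases before its start, and the first window of Tnfaip3 held GGGACACCCC and GGAAATCCCC, from 125 and 12 bases before its start. The windows of Rela and Nfkbib held no match. The AP-1 site TGANTCA was searched on both strands in the same way. It occurred in the window of Nfkbie, in the first window of Tnfaip3 and in the second window of Nfkb2, nowhere overlapping a kappaB match, against 7.81% of all windows. A match describes these letters and is not evidence of binding.

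The libraries held 35448588 to 41469090 reads in the table. All 12 epithelial marker genes looked for, such as Epcam and Krt8, were in the table, at summed levels of 2728 to 3174 CPM (reads per 1000000 of the scaled library total) in tumour libraries and 2882 to 3673 CPM in cultured libraries. Of these 12 genes 0 rose and 6 fell. Host cell markers stood at higher levels in tumour libraries, where 56 of 58 tested were called higher. That count is a description, since markers near 0 reads in culture are in the table through their tumour reads, which fixed their direction. Summed levels of 15 macrophage markers were 6846 to 10322 CPM in tumour libraries and 28.1 to 39.5 CPM in cultured libraries. Those of 9 neutrophil markers were 301 to 2989 CPM in tumour libraries and 0.110 to 0.446 CPM in cultured libraries, where Mmp8, Retnlg and Ngp had 0 reads. Those of 10 dendritic and MHC class II markers were 5561 to 7883 CPM in tumour libraries and 5.11 to 25.2 CPM in cultured libraries, with Flt3 at 0 reads in culture. Those of 10 fibroblast markers were 6249 to 8063 CPM in tumour libraries and 23.6 to 51.6 CPM in cultured libraries, with Dpt at 0 reads in culture. Endothelial markers (10 genes) summed to 116 to 170.1 CPM in tumour libraries and 10.8 to 15.8 CPM in cultured libraries, with Emcn and Cldn5 at 0 reads in culture, and the 4 lymphocyte markers in the table summed to 5.61 to 7.86 CPM in tumour libraries and 0 to 0.0221 CPM in cultured libraries, where Cd4, Cd8a and Klrb1c had 0 reads. In such bulk samples, more or fewer cells of a type and more or less RNA per cell cannot be told apart, and the part of host cells in the changes of the 10 genes was not tested. Cultured library 1 and tumour library 2 stood apart from the others of their groups for these genes, as described below.

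The comparison between the groups asked how the 10 genes differ between cells sorted from tumours, with the host markers given above, and cultured cells. The IkB-alpha gene Nfkbia, the IkB-zeta gene Nfkbiz and the c-Rel gene Rel rose in the tumour libraries, Nfkb2 fell, and the other 6 did not pass the test. Thus 2 of the genes grouped as inhibitors rose and 0 fell, while 1 subunit rose and 1 fell. Of those 2 inhibitors, Nfkbiz also switches on genes, as described below. At an unadjusted p under 0.05, limma gave 3 inhibitors and 2 subunits, beside 55.1% of all genes. These calls used limma on the log2 CPM values of all genes, with Benjamini-Hochberg adjustment at 0.05. Over all genes tested 48.2% were called, 29.5% higher and 18.8% lower, so 4 called genes of 10 is a share near the background. The median log2 change was 1.51 for the 5 inhibitors and -0.0024 for the 5 subunits, beside 0.08 for all genes. The groups did not overlap in 3 of the 10 genes, against 59.8% of all genes; 2 of the 3 were higher in tumours (34.6% of all genes) and 1 was lower (25.2%). With libraries scaled to the epithelial markers, 5 of the 10 were called higher and 0 lower, against 41.1% and 5.24% of all genes.

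**Figure D1:**
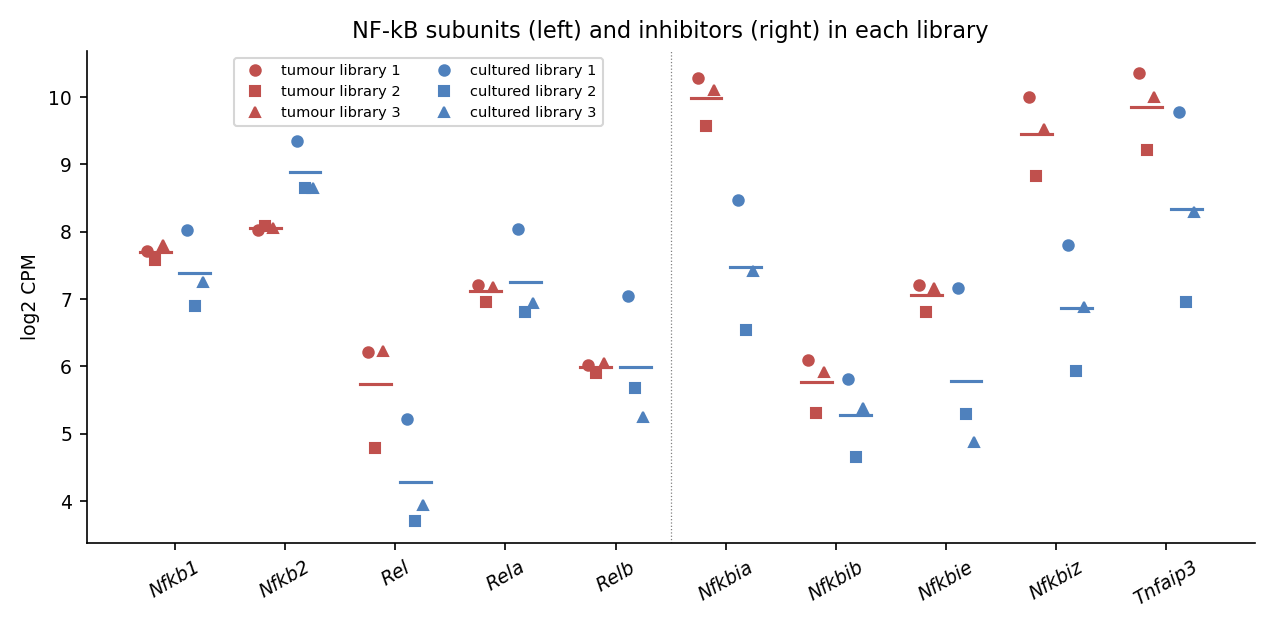
Log2 CPM of the 10 genes in each of the 6 libraries, with tumour libraries in red left of cultured libraries in blue. Marker shapes give the library number and bars the group means (n = 3). For Nfkbia and Nfkbiz all tumour libraries lie above all cultured ones, for Nfkb2 all lie below, and cultured library 1 is the highest of its group for all 10 genes.

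Among the inhibitors, Nfkbia encodes IkB-alpha, which masks the nuclear import signals of classical dimers and is rebuilt by NF-kB after its destruction. It lies on chromosome 12 from 55489410 to 55492647 of GRCm38. Its level was 1250.2, 757 and 1102 CPM in tumour libraries 1, 2 and 3, against 356, 92.8 and 170.0 CPM in cultured libraries 1, 2 and 3. Every tumour library thus stood above every cultured library. The log2 change, tumour minus cultured, was 2.51 (SE 0.46, limma adjusted p = 0.00289), a fold of 5.70. Under 16 alternative settings the change lay between 2.04 and 3.22 and the adjusted p between 0.000539 and 0.0134.

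Nfkbiz encodes IkB-zeta, an inducible nuclear IkB that switches on a later set of inflammatory genes, and lies on chromosome 16 from 55811375 to 55838899. Its level was 1020.0, 456 and 739 CPM in tumour libraries 1, 2 and 3, against 223, 60.7 and 118 CPM in cultured libraries 1, 2 and 3. The groups did not overlap here either, and the change was 2.58 (SE 0.48, limma adjusted p = 0.00324), a fold of 5.98. Its change lay between 2.11 and 3.36 under the 16 alternatives, with adjusted p from 0.000864 to 0.0142.

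Tnfaip3 encodes A20, a ubiquitin-editing enzyme that shuts off signalling above the IKK kinases, and lies on chromosome 10 from 19000910 to 19015657. Its level was 1309.6, 593 and 1023 CPM in tumour libraries 1, 2 and 3, against 878, 125 and 312 CPM in cultured libraries 1, 2 and 3. Cultured library 1 thus lay above tumour library 2, and the change of 1.51 (SE 0.66, 95% interval -0.01 to 3.04) did not pass (limma adjusted p = 0.0933). Without cultured library 1 the change was 2.23 (limma adjusted p = 0.0116), and without cultured library 2 it was 0.82 (limma adjusted p = 0.235).

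Nfkbie encodes IkB-epsilon, a slower feedback inhibitor, on chromosome 17 from 45555703 to 45563169. It stood at 148, 112 and 144 CPM in tumour libraries 1, 2 and 3, against 144, 39.2 and 29.2 CPM in cultured libraries 1, 2 and 3. Cultured library 1 was at the tumour level and the other cultured libraries were far below it. The change of 1.28 (SE 0.54) did not pass (limma adjusted p = 0.0836). Without cultured library 1 it was 1.98 (limma adjusted p = 0.000544), and without cultured library 3 it was 0.83 (limma adjusted p = 0.191). Nfkbib encodes IkB-beta, the IkB that is least tied to feedback, on chromosome 7 from 28758251 to 28767512. It stood at 68.5, 39.6 and 60.1 CPM in tumour libraries 1, 2 and 3, against 56.4, 25.1 and 41.7 CPM in cultured libraries 1, 2 and 3. The groups overlapped, and the change of 0.49 (95% interval -0.28 to 1.26, limma adjusted p = 0.255) did not pass. Of its annotated exon bases 14.5% are shared with Ccer2 on the other strand, and reads of such stretches cannot be told apart without strand.

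Among the subunits, Nfkb2 encodes p100, the precursor of p52 in the alternative route, on chromosome 19 from 46304320 to 46312385. Its level was 260.2, 272 and 266 CPM in tumour libraries 1, 2 and 3, against 649.8, 401 and 401 CPM in cultured libraries 1, 2 and 3. Every tumour library lay below every cultured library, and the tumour libraries were nearly level with each other. The change was -0.82 (SE 0.22, limma adjusted p = 0.0153), and its fold of 0.565 is the smallest absolute change among the 4 called genes. The call was lost when libraries were scaled to the epithelial markers (-0.33, limma adjusted p = 0.303) and without tumour library 1 (0.0586) or tumour library 3 (0.0581). Of its exon bases 11.6% are shared with AC114539.1 and 6.52% with Psd, both on the other strand.

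Rel encodes c-Rel, a subunit known mainly from lymphoid and myeloid cells, on chromosome 11 from 23736847 to 23770970. It stood at 74.1, 27.7 and 74.9 CPM in tumour libraries 1, 2 and 3, against 37.3, 13.1 and 15.3 CPM in cultured libraries 1, 2 and 3. Tumour library 2 lay below cultured library 1, so the groups overlapped. The change was 1.46 (SE 0.51, limma adjusted p = 0.0462), a fold of 2.74. This call was near the threshold and was lost under 8 of the 16 alternatives, with adjusted p up to 0.148, among them without tumour library 1 (0.142) or 3 (0.148) and without cultured library 2 (0.133) or 3 (0.0959).

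The other subunits did not pass. Nfkb1, which encodes the p105 precursor of p50, lies on chromosome 3 from 135584655 to 135691547. It stood at 209, 191 and 224 CPM in tumour libraries 1, 2 and 3, against 260.2, 119 and 153 CPM in cultured libraries 1, 2 and 3, a change of 0.31 (95% interval -0.34 to 0.95, limma adjusted p = 0.394). Cultured library 1 was above all tumour libraries and the other cultured libraries were below all of them. Without cultured library 1 the change was 0.62 (limma adjusted p = 0.0290), and without cultured library 2 it was 0.06 (limma adjusted p = 0.863).

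Rela, which encodes the activating subunit p65, lies on chromosome 19 from 5637483 to 5648130. It stood at 149, 125 and 145 CPM in tumour libraries 1, 2 and 3, against 263, 112 and 122 CPM in cultured libraries 1, 2 and 3, a change of -0.14 (95% interval -0.88 to 0.59, limma adjusted p = 0.734). Relb, which encodes the partner of p52, lies on chromosome 7 from 19606217 to 19629438. It stood at 64.6, 59.7 and 66.3 CPM in tumour libraries 1, 2 and 3, against 132, 51.4 and 38.0 CPM in cultured libraries 1, 2 and 3, a change of -0.0024 (95% interval -0.97 to 0.96, limma adjusted p = 0.997). For both genes cultured library 1 was the highest of all 6 libraries, and their changes had the opposite sign without it, 0.25 for Rela and 0.52 for Relb, with neither passing. They also had that sign when libraries were scaled to the epithelial markers, at 0.35 for Rela and 0.49 for Relb.

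**Figure D2:**
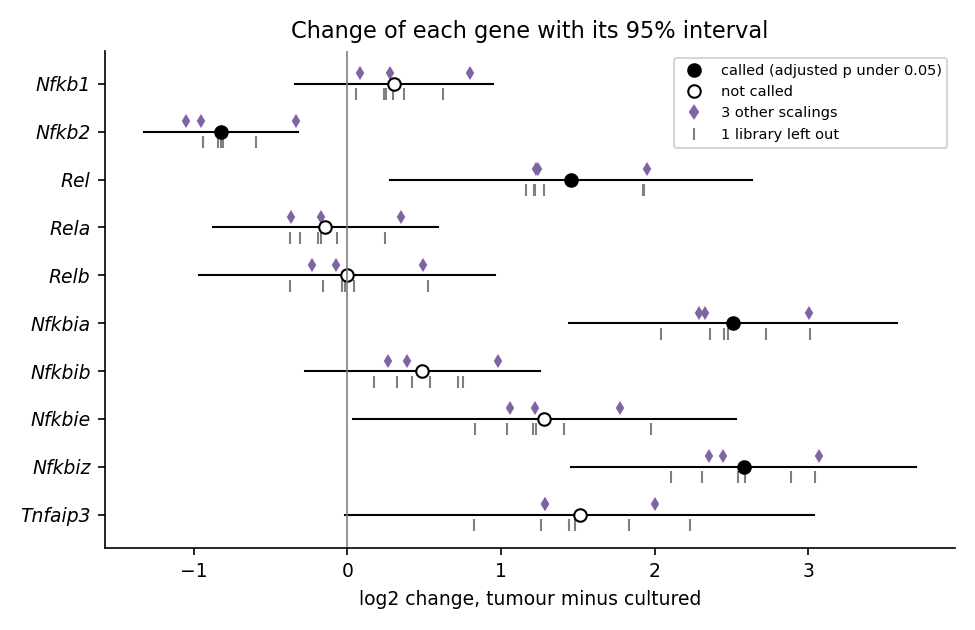
Log2 change of each gene (tumour minus cultured, horizontal axis) with its 95% interval from limma; filled circles passed the test. Diamonds show the change under 3 other scalings and ticks the change with 1 library left out. The changes of Nfkbia and Nfkbiz stay above 2 in all of these, while those of Rela and Relb lie on both sides of 0.

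The libraries of a group did not vary independently across these genes. Cultured library 1 was the highest cultured library for 10 of the 10 genes, against 27.7% of all genes, and the median of the 10 genes lay 1.40 above the mean of the other cultured libraries on the log2 scale. Its excess was 2.15 for Tnfaip3, 2.09 for Nfkbie and 1.57 for Relb, and was smallest for Nfkb2 at 0.70. In the same library the median of 28 listed NF-kB target genes lay 1.39 above the others and that of 20 adaptors 0.53 above. That of 10 receptors lay 0.37 above and that of 11 genes of the kinase list 0.27 above. That of 15 further brakes and ubiquitin regulators lay 0.10 above, and that of 9 ligands lay 0.07 below (-0.07). That of all genes lay 0.02 below (-0.02). Of the cell markers with a cultured mean of at least 1 log2 CPM, 11 epithelial markers had a median of -0.01 relative to the other cultured libraries. That of 3 macrophage markers was 0.22, while 1 fibroblast marker stood at -0.36 and 1 endothelial marker at -0.18. That of 2 genes of the dendritic and MHC class II list, Cd74 and Zbtb46, was 1.33. Their median was 0.64 in cultured library 2 and -1.97 in cultured library 3. Zbtb46 did not differ between the groups, at 4.28 CPM in tumour libraries and 4.24 CPM in cultured libraries (means). Others of that list, such as H2-Aa, H2-Ab1, H2-Eb1 and Itgax, had means of 0.208, 0.219, 0.254 and 0.114 CPM in cultured libraries. The median of the 10 genes was -0.81 in cultured library 2 and -0.28 in cultured library 3. Whether cells of the listed types had a part in the higher values of cultured library 1 was not tested.

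Tumour library 2 was the lowest tumour library for 9 of the 10 genes, all except Nfkb2, against 39.2% of all genes. It lay below the mean of the other tumour libraries by -1.43 for Rel, -0.96 for Tnfaip3, -0.93 for Nfkbiz, -0.70 for Nfkbib and -0.63 for Nfkbia on the log2 scale. The differences were smaller for Nfkbie (-0.38), Rela (-0.23), Nfkb1 (-0.18) and Relb (-0.13). In tumour library 2 the median of 9 ligands was -0.77 relative to the others, that of 10 receptors -0.59 and that of 28 targets -0.57. That of 15 further brakes and ubiquitin regulators was -0.31, that of 20 adaptors -0.28 and that of 11 genes of the kinase list -0.17. In that library the median of 8 neutrophil markers was -3.05 relative to the others, that of 10 endothelial markers -0.51, that of 15 macrophage markers -0.46, that of 8 dendritic and MHC class II markers -0.44 and that of 10 fibroblast markers -0.35, while that of 11 epithelial markers was 0.08. The part of these cells in the lower values was not tested. The range over 3 libraries was wider in culture than in tumours for 10 of the 10 genes, against 81.1% of all genes.

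With tumour library 2 and cultured library 1 both left out, an alternative added after the data were seen, 5 of the 10 genes were called higher (Rel, Nfkbia, Nfkbie, Nfkbiz and Tnfaip3) and Nfkb2 was again called lower. Of all genes 24% were called higher and 11.6% lower in that setting. Each group then held 2 libraries. The 2 libraries left out were those that stood apart by the values of these 10 genes. Leaving them out widened the differences of the 5 genes called higher. The shares of all genes were not selected in this way, so the counts are not like for like with them.

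**Figure D3:**
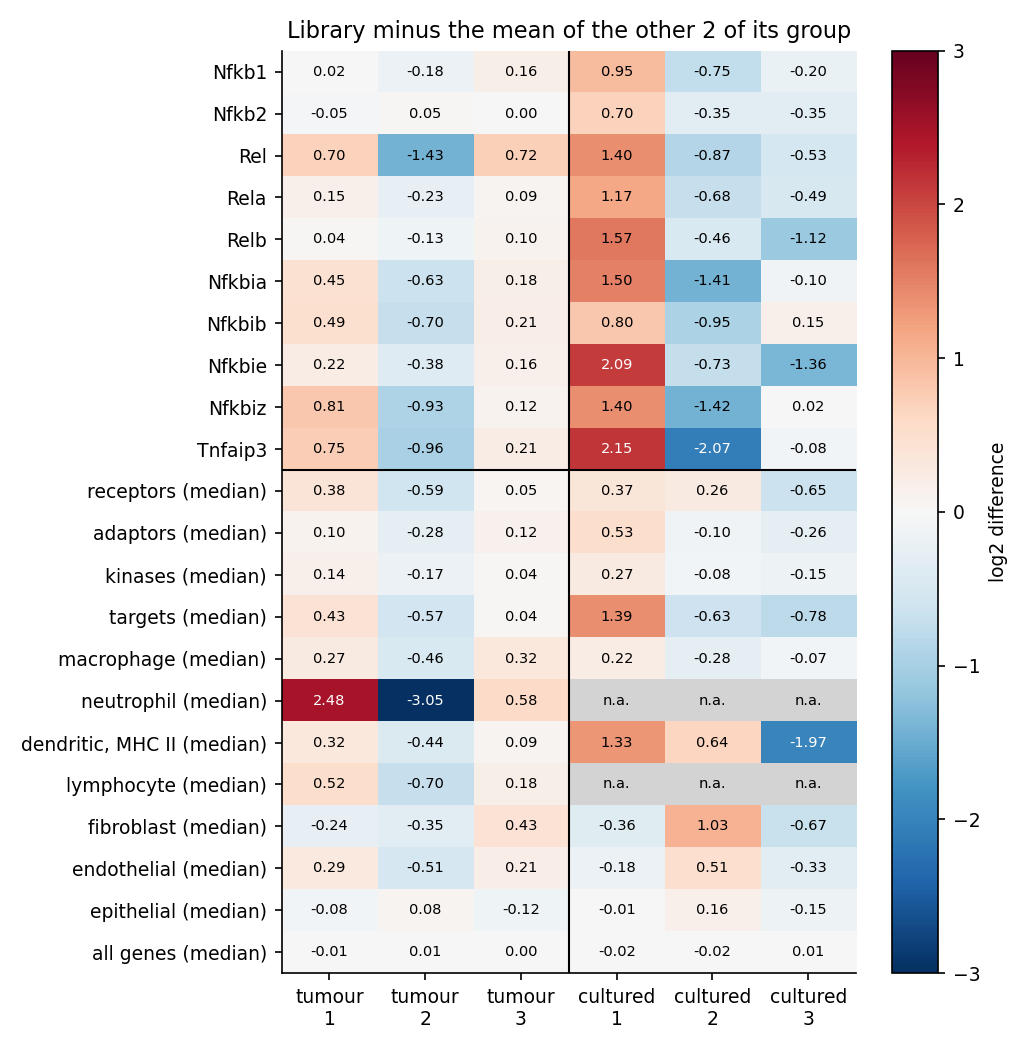
Log2 value of each library minus the mean of the other 2 libraries of its group, for the 10 genes (top) and for medians of gene lists (bottom), tumour libraries left of cultured libraries. Red is higher, blue lower, and grey marks lists with no gene above the level minimum. The lists of ligands and of further brakes are not shown. Cultured library 1 is above its group in all 10 rows and in the targets row, and tumour library 2 is below its group in 9 of the 10 and in all 6 host marker rows.

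Ratios of 2 genes within a library do not depend on how the library was scaled. The log2 ratio of Nfkb2 to Nfkb1, the precursors of p52 and p50, was 0.36 ± 0.14 in tumour libraries and 1.49 ± 0.23 in cultured libraries (SD, n = 3 each). It ranged from 0.25 to 0.51 in tumour libraries and from 1.32 to 1.75 in cultured libraries, and the difference of means was -1.13. The log2 ratio of Rel to Rela was -1.37 ± 0.69 in tumour libraries and -2.97 ± 0.14 in cultured libraries (SD, n = 3 each), and again the groups did not overlap. For Nfkbia over Rela, the inhibitor over the subunit it holds, it was 2.87 ± 0.24 in tumour libraries and 0.21 ± 0.42 in cultured libraries (SD, n = 3 each). For Nfkbie over Rela it was -0.06 ± 0.08 in tumour libraries and -1.48 ± 0.60 in cultured libraries, and for Tnfaip3 over Rela 2.74 ± 0.45 in tumour libraries and 1.08 ± 0.82 in cultured libraries (SD, n = 3 each). Thus Nfkbie and Tnfaip3, whose levels overlapped between the groups, did not overlap as ratios to Rela.

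Of 11 ratios compared, the groups did not overlap in 9. For the 9 ratios to Rela, which share that gene, this was so in 7, against 36.7% of the ratios of all other genes to Rela. These shares are not like for like. In cultured library 1, Rela stood 1.17 above the mean of the other cultured libraries on the log2 scale. The median of the genes described here stood at 1.40 and that of all genes at -0.02. A ratio to Rela thus reduces an excess shared with Rela and adds spread to genes without it. The part of this in the 7 was not tested. Each of the 9 ratios without overlap had p = 0.1 in a two-sided exact permutation test, the smallest p that 3 libraries against 3 allow, and 0.122 after Benjamini-Hochberg adjustment over the 11, so no ratio could pass a threshold of 0.05. Relb over Rela and Nfkbib over Rela overlapped, with differences of 0.14 and 0.63. Relb over Rela was -1.13 ± 0.07 in tumour libraries and -1.27 ± 0.37 in cultured libraries (SD, n = 3 each).

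Levels of different genes were compared as CPM per kilobase of annotated exon. In tumour libraries Nfkbia led at 644 ± 157, followed by Nfkbiz at 147 ± 56.2, Tnfaip3 at 135 ± 49.9, Nfkb2 at 58.1 ± 1.28, Rela at 45.3 ± 4.19 and Nfkbie at 44.2 ± 6.39 CPM per kilobase (SD, n = 3). Nfkbib stood at 25.9 ± 6.85, Nfkb1 at 17.2 ± 1.38, Relb at 16.4 ± 0.89 and Rel at 7.89 ± 3.62 CPM per kilobase. By their ranges over the 3 libraries, Nfkbiz overlapped Tnfaip3 in that order, Rela overlapped Nfkbie, Nfkbib overlapped Nfkb1 and Nfkb1 overlapped Relb. The other neighbours did not overlap. Such ranges can overlap even where a gene is above its neighbour in each library. In cultured libraries Nfkbia stood at 128 ± 84.2, Nfkb2 at 106 ± 31.3, Tnfaip3 at 60.7 ± 54.3 and Rela at 54.0 ± 27.5 CPM per kilobase (SD, n = 3). Nfkbiz followed at 26.7 ± 16.4, Nfkbie at 23.2 ± 20.9, Relb at 19.0 ± 13.0, Nfkbib at 18.9 ± 7.21 and Nfkb1 at 14.7 ± 6.12 CPM per kilobase. By ranges over the cultured libraries, only Rel, at 2.93 ± 1.79 CPM per kilobase, was separate from its neighbour in the cultured order. The level of Nfkb1 depends on the length used, since its exon union is 12061 bases and its longest basic transcript 4117. By the longest transcript, an alternative added after the data were seen, it stood at 50.5 ± 4.05 CPM per kilobase in tumour libraries, where Tnfaip3 then stood above Nfkbiz, Nfkbie above Rela, and Nfkb1 and Relb above Nfkbib.

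Nfkbia transcripts per kilobase outnumbered those of the 5 subunits together in tumours and not in culture. In tumour libraries 1, 2 and 3 Nfkbia stood at 777, 470.1 and 685 CPM per kilobase against a subunit sum of 149, 135 and 151. In cultured libraries 1, 2 and 3 it stood at 221, 57.7 and 106 against a subunit sum of 288, 149 and 152. With lengths of the longest basic transcript Nfkbia was again above the sum in each tumour library and below it in each cultured library.

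Among the subunits, Nfkb2 made up 38.1% to 44.0% of the summed CPM per kilobase in tumour libraries and 49.2% to 58.8% in cultured libraries. The share of Rel was 2.76% to 6.66% in tumour libraries and 1.18% to 1.74% in cultured libraries, that of Nfkb1 11.6% to 12.3% in tumour libraries and 6.63% to 8.34% in cultured libraries, and that of Rela 30.1% to 32.4% in tumour libraries and 24.5% to 29.8% in cultured libraries. The shares of Relb overlapped, at 11.2% to 11.4% in tumour libraries and 6.44% to 11.8% in cultured libraries. By the longest transcript the shares of Rela overlapped too, at 23.7% to 25.8% in tumour libraries and 20.7% to 24.6% in cultured libraries, and that of Nfkb1 averaged 24.3% in tumour libraries and 16.2% in cultured libraries. These shares are of transcripts and sum to the whole, so a lower share of Nfkb2 raises the others.

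**Figure D4:**
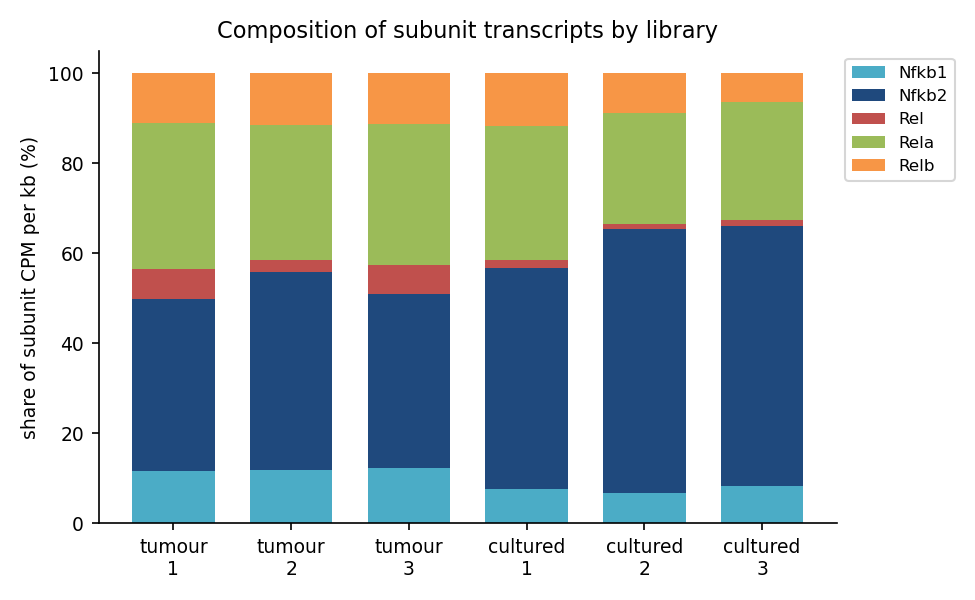
Share of each subunit gene in the summed CPM per kilobase of the 5 subunits (vertical axis, percent), with a bar for each library, tumour libraries left of cultured libraries. The Nfkb2 segment is 38.1% to 44.0% in tumour libraries and 49.2% to 58.8% in cultured libraries, and the Rel segment is wider in all tumour libraries.

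The genes with patterns most like those of the most changed subunit and inhibitor were found by Euclidean distance between log2 values centred over the 6 libraries, among 10594 genes with a mean of at least 1 log2 CPM. For Nfkbiz the nearest gene was Nfkbia (distance 0.34), before Samsn1 (0.70), an adaptor of blood cells, and Csrnp1 (0.74), an inducible nuclear protein. For Rel they were Icosl (0.48), the ligand of the costimulatory receptor ICOS, Stx11 (0.61), a syntaxin of immune cells, and Maff (0.78), a small basic leucine zipper factor. The distance mixes the difference between groups with that among libraries of a group.

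The genes around the 10 were read from 6 lists, in the same tumour libraries whose host marker levels are given above. Of 93 genes tested, 55 rose (59.1%, against 29.5% of all genes) and 9 fell (9.68%, against 18.8% of all genes), and 29 did not pass. Of the ligands that start the pathway, 9 of 9 in the table rose, with a median change of 5.62. Il1b, the gene of interleukin-1 beta, stood at 2096 ± 1125 CPM in tumour libraries and 1.76 ± 1.44 CPM in cultured libraries (SD, n = 3 each), a change of 10.38 (SE 0.59, limma adjusted p = 4.88e-06). Tnf changed by 9.48 (SE 0.85) and stood at 242 ± 124 CPM in tumour libraries, and Tnfsf12, the gene of TWEAK, by 8.03 (SE 0.63). The summed ligand level was 4870.4, 1721 and 2759 CPM in tumour libraries 1, 2 and 3, lowest in library 2, where the summed levels of all 6 host marker lists were lowest too. Genes with under 61 reads over the 6 libraries are not in the table, so the direction of genes near 0 reads in culture, such as Tnfsf12 with 4 reads and Tnfsf11 with 1, was fixed by that filter.

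Of 10 receptors, 8 rose and 1 fell (median 1.86). Tnfrsf11a, the gene of RANK, changed by 5.19 (SE 0.32), Cd40 by 4.49 (SE 0.42) and the Toll-like receptor gene Tlr2 by 4.05 (SE 0.36). Tnfrsf12a, the gene of the TWEAK receptor, fell, at 237 ± 56.8 CPM in tumour libraries and 527 ± 159 CPM in cultured libraries (SD, n = 3 each, change -1.14, limma adjusted p = 0.00822). Of 20 adaptors, 11 rose and 3 fell (median 0.92). Irak3, a brake of Toll-like receptor signalling, changed by 6.94 (SE 0.75). Card9, an adaptor of myeloid lectin receptors, had 2 reads in culture and a ratio of 1629 (95% counting interval 451 to 13454). The 3 that fell were Traf1 (change -1.25, limma adjusted p = 0.0442), Traf2 (-1.06, 0.0294) and Traf3 (-0.60, 0.0455), adaptors of TNF receptors of which Traf2 and Traf3 hold the alternative route in check. Their calls were lost under 8, 8 and 9 of the 16 alternatives, cultured library 1 left out among them.

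Of 11 genes of the kinase list, 3 rose, 1 fell and 7 did not pass (median 0.12). The list also holds partners that are not kinases, Ikbkg, Tab1, Tab2 and Tab3. None of the IKK subunit genes Chuk, Ikbkb and Ikbkg passed, with changes of -0.37, -0.16 and 0.30. Map3k8, the kinase held by p105, changed by 2.72 (SE 0.42, limma adjusted p = 0.00122). Map3k14, which encodes NIK, the kinase of the alternative route, changed by 0.89 (SE 0.27, limma adjusted p = 0.0278), Ikbke by 1.16 (SE 0.40, limma adjusted p = 0.0444) and Map3k7, the gene of TAK1, by -0.48 (SE 0.15, limma adjusted p = 0.0283). The calls of Map3k14, Ikbke and Map3k7 were lost under 5, 7 and 7 of the 16 alternatives.

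Of 15 further brakes and ubiquitin regulators, 8 rose and 1 fell (median 0.67). Nfkbid, which encodes the nuclear inhibitor IkB-NS, stood at 113 ± 48.4 CPM in tumour libraries and 4.53 ± 0.98 CPM in cultured libraries (SD, n = 3 each), a change of 4.55 (SE 0.36, limma adjusted p = 2.87e-05). Zfp36, which encodes an RNA-binding protein that destabilises cytokine messages, changed by 5.36 (SE 0.32), and Tnip3, an A20-binding partner, had 1 read in culture and a ratio of 991 (95% counting interval 178 to 39142). Cyld, a deubiquitinase that opposes IKK activation, fell, with a change of -0.98 (SE 0.27, limma adjusted p = 0.0182), a call lost under 4 of the 16 alternatives.

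Of 28 target genes, 16 rose, 3 fell and 9 did not pass (median 2.05, the same with Bcl2a1d, which had 0 reads in culture, set against a floor of 3 reads over the cultured group). Cxcl2, a neutrophil chemokine gene, changed by 10.55 (SE 1.28, limma adjusted p = 0.000334), and stood at 1811 ± 1035 CPM in tumour libraries and 3.54 ± 5.57 CPM in cultured libraries (SD, n = 3 each). Cd83, of activated dendritic cells, and Bcl2a1b, a survival gene with near-identical copies among which reads cannot be assigned with certainty, had 2 reads each in culture. Their ratios were 14812 (95% counting interval 4100 to 122307) and 3485 (965 to 28774). The 3 that fell were the chemokine genes Ccl20 (change -6.57, SE 1.26) and Cxcl5 (-5.15, SE 0.63) and the cytokine gene Csf2 (-2.36, SE 0.63). Ccl20 was near 0 reads in tumour libraries 1, 2 and 3, at 0.0814, 0.0738 and 0.0264 CPM. Its direction was thus fixed by the filter on total reads as well. In cultured libraries 1, 2 and 3 it stood at 34.8, 10.4 and 0.746 CPM. Among the 9 that did not pass were the targets with the highest cultured levels, Ptgs2 at 1614 ± 652 CPM in tumour libraries and 1662 ± 966 CPM in cultured libraries, and Cxcl1 at 457 ± 125 CPM in tumour libraries and 817 ± 1045 CPM in cultured libraries (SD, n = 3 each). Also without Ccl20, the target list held genes that moved in both directions.

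**Figure D5:**
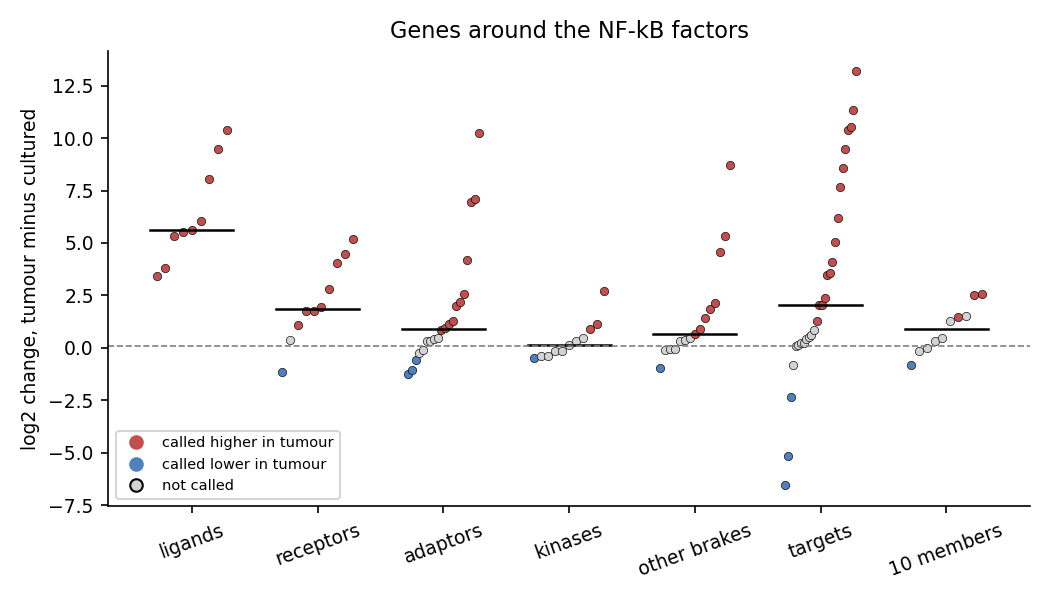
Log2 change (tumour minus cultured, vertical axis) of each gene of 6 lists and of the 10 NF-kB genes; red was called higher, blue lower, grey not called. Black bars are list medians and the dashed line is the median of all genes, 0.08. All 9 ligands are red, and the kinase median of 0.12 lies close to the dashed line.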

How the data were processed

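The submitters' processing notes name HISAT, HTSeq and limma and the build mm10, without versions. The authors deposited log2 CPM values by gene symbol, in the form of limma's voom, with 0.5 reads added to each count and library totals rescaled by TMM, a trimmed mean over genes. Solving this form for reads gave whole numbers, within 0.01, for 100% of values. Reads are not independent molecules, so intervals and floors cover counting error only.

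The 6 libraries (3 tumour, 3 cultured, each group numbered 1 to 3 by accession) entered a limma fit (version 3.58.1, R 4.3.3). It used a variance trend over all 13912 genes and had been run on simulated data. The simulated reads had the same dispersion in both groups and no shift shared within a library. In these data the median SD of a gene was 0.157 in tumour libraries and 0.364 in cultured libraries. The simulation cannot show how the fit behaves with such a spread. Ratios within a library used exact permutation tests. The alternatives were other scalings, a filter on low values, more added reads, other variance models, and leaving out libraries.

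The 10 genes, the gene lists and the tests were chosen with earlier results of these data known. From each list the text names up to 3 called genes with the largest rise and up to 3 with the largest fall, less any whose values are not reported here, and others are named as examples chosen after their values were seen. Coordinates and exon lengths came from GENCODE M21 (GRCm38, the assembly that mm10 names) by symbol, and promoter sequences from the RefSeq table of GRCm38.p6. A CPM in the text is the solved reads per 1000000 of the scaled total.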

Additional observations from a re-analysis of the deposited data

How the results depend on the processing

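As deposited, 3 of the 10 genes were called higher and 1 lower (29.5% and 18.8% of all genes). When libraries were scaled to the epithelial markers 5 were called higher and 0 lower (41.1% and 5.24% of all genes). With tumour library 2 and cultured library 1 both left out, these counts were 5 and 1 (24% and 11.6% of all genes). Those libraries stood apart by the values of the 10 genes, so the counts are not like for like with these shares. Leaving out 1 library gave 2 to 6 called higher (6 without cultured library 1) and 0 to 1 called lower (0 without tumour library 1 or 3). The share of all genes called was not counted with 1 library left out, nor without a variance trend. Counts under those settings, also those of pathway genes below, therefore have no background beside them. Nfkbia and Nfkbiz were called higher under all 16 alternatives. Scaling to the epithelial markers moved every change by 0.49 upward, and centring on the library median moved it by 0.22 downward. The change of Rela was 0.35 on the epithelial scale, 0.32 without both libraries, and -0.37 to 0.25 with 1 left out; that of Relb was 0.49, 0.57, and -0.37 to 0.52. The ratio of Relb to Rela differed by -0.068 to 0.28 with 1 library left out, the lowest without cultured library 3. Pathway genes called lower numbered 9 as deposited, 3 on the epithelial scale, 5 without a variance trend, 4 without both libraries, and 3 to 10 with 1 left out, where those called higher numbered 45 to 57, against 55. The cause was not tested. No paired analysis was possible because the groups share no replicate number in the labels. Depth was no limit for the 10 genes, whose lowest read count in a library was 533, for Rel.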
